A study of Mus musculus with 2 samples.

Results

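Pericentral Wnt target genes are genes that hepatocytes around the central vein keep on through Wnt signaling, and 10 of them were read from RNA-sequencing of regenerating livers: Glul, Oat, Rhbg, Slc1a2, Axin2, Lgr5, Znrf3, Rnf43, Tbx3 and Lect2. The genes were taken by symbol from the deposited table of 38016 loci, and all 10 were found among the 33224 gene symbols kept. The 2 libraries compared came from liver of wild-type (WT) and PPARβ-null (KO) male C57BL/6 mice, with an age of 4 months in the sample labels. The text of the study places both 48 hr after partial hepatectomy (PH), the surgical removal of most of the liver. Both genotypes had PH, so neither library is an unoperated control, and the null allele is present in every cell type and not only in hepatocytes. Each genotype gave 1 library, nothing says whether a library holds 1 mouse or a pool, and the spread between mice is unknown.

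Wnt proteins are secreted glycoproteins that bind Frizzled receptors together with Lrp5 or Lrp6. Binding stops the breakdown of β-catenin, which then enters the nucleus and turns on target genes with TCF/LEF factors. In the liver, endothelial cells of the central vein release Wnt ligands, and the hepatocytes next to them express genes of glutamine synthesis and drug metabolism, whereas periportal hepatocytes at the other end of the lobule express genes of urea and glucose synthesis.

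Values are FPKM, the authors' estimate for each locus of its sequenced fragments, divided by the exon length and by the size of the library. On a transcript of 1 kb, 1 FPKM stood for about 53.3 fragments of the WT library and 55.2 of the KO library, estimated from the lowest values of single-exon genes. From these depths each KO/WT ratio was given a 95% counting interval (exact Clopper-Pearson), which covers counting error only. Across 11073 loci with a mean FPKM of at least 1, called expressed genes, the median log2 KO/WT was -0.24, so a gene at this median had a slightly lower FPKM in KO. The libraries carry different lane names in the table, and lane and genotype cannot be told apart. Ppard, the targeted gene, had 2.67 FPKM in WT against 2.42 in KO, a KO/WT ratio of 0.906 (counting interval 0.793 to 1.04), so the value of the whole locus did not check the genotype labels. Of the hepatocyte markers, Alb and Trf were listed as failed estimates, while Apoa1 (3061 FPKM in WT, 3503 in KO), Ttr (2503 and 2406) and Apob (823 and 1282) were abundant in both libraries. Of the 6 hepatocyte markers measured, 4 were higher in KO, against 25.1% of 14997 loci with a mean FPKM of at least 0.1. Apob had a KO/WT ratio of 1.56.

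Most of the 10 pericentral Wnt target genes read here had a higher FPKM in regenerating KO than WT liver. Of the 10 genes, 7 were higher in KO, namely Axin2, Lect2, Tbx3, Lgr5, Glul, Rnf43 and Oat, against 25.1% of 14997 loci with a mean FPKM of at least 0.1. By more than 1.5-fold, 6 genes were higher in KO, against 6.05% of these loci. By more than 2-fold, 2 genes were higher in KO (Axin2 and Lect2), against 2.79% of these loci. None of the 10 was more than 2-fold lower in KO, where 13.7% of these loci were. The threshold of 2-fold fell between Lect2, with a ratio of 2.114, and Tbx3, with 1.996, and that of 1.5-fold fell between Rnf43 (1.504) and Oat (1.202). After 0.1 FPKM was added to each value as a pseudocount, the log2 KO/WT had its median at 0.59 over the 10 genes, against -0.25 over the 14997 loci. Over the 6 hepatocyte markers measured, the median was 0.18, so these also lay above the median of all loci. The 7 genes stayed higher in KO under each scaling of the libraries tried, and relative to the median of expressed genes 3 of the 10 (Axin2, Lect2 and Tbx3) were more than 2-fold higher, against 2.74% of expressed genes. Lower in KO were 3 of the 10 (Rhbg, Znrf3 and Slc1a2), against 74.9% of the 14997 loci, and of these Znrf3 and Slc1a2 changed direction with centring. With 1 library per genotype these counts describe the pair of libraries, and no test of the genotypes can be made.

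**Figure D1:**
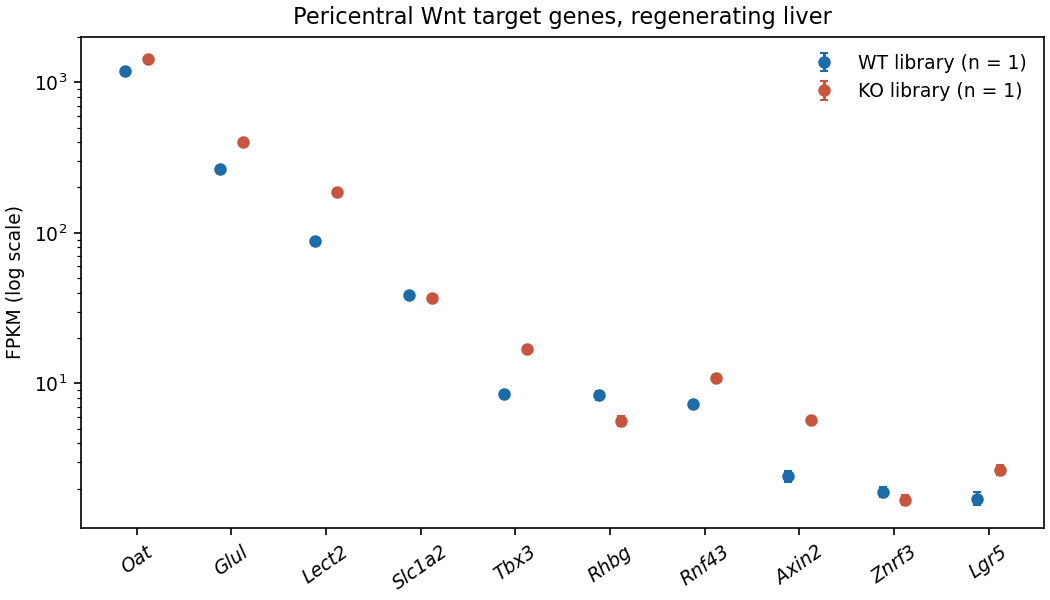
FPKM (log scale) of each gene in the WT and the KO library, 1 library each, with bars for the 95% counting interval of each value. The KO point lies above the WT point for Oat, Glul, Lect2, Tbx3, Rnf43, Axin2 and Lgr5, and below it for Rhbg, Slc1a2 and Znrf3, of which Slc1a2 and Znrf3 change direction when the libraries are centred on the median of expressed genes.

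Axin2, Lgr5, Rnf43 and Znrf3 act in the Wnt pathway itself and are also its targets. Axin2 is a scaffold of the complex that breaks down β-catenin, and its mRNA is a common readout of Wnt activity. Its FPKM was 2.42 in WT against 5.70 in KO. The KO/WT ratio of 2.35 (counting interval 2.13 to 2.60) was the highest of the 10 genes, and 1.04% of expressed genes had a ratio at least as high. Axin2 lies on the plus strand of chromosome 11, 108781663 to 108812097 (mm9), where its exons overlap the annotated gene Gm11670. A second row of the same symbol and place was listed at 0 in both libraries.

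Lgr5 encodes a receptor for R-spondins, which strengthen Wnt signaling, and marks hepatocytes at the central vein. Its FPKM was 1.72 in WT against 2.65 in KO, a ratio of 1.54 (counting interval 1.37 to 1.74). About 439.5 fragments of WT and 702 of KO stood behind these values. Rnf43 and Znrf3 encode membrane E3 ubiquitin ligases that remove Frizzled receptors from the cell surface. The row of Rnf43 had 7.25 FPKM in WT against 10.9 in KO, a ratio of 1.504 (counting interval 1.41 to 1.60), and it also names 1110028F11Rik, so the value belongs to the joint locus. Znrf3 did not follow Rnf43. Its FPKM was 1.91 in WT against 1.69 in KO, a ratio of 0.884 (counting interval 0.788 to 0.989), which became 1.04 relative to the median of expressed genes.

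Tbx3 and Lect2 were among the 3 genes with the highest ratios. Tbx3 is a T-box transcription factor of hepatocytes and liver progenitors. Its FPKM was 8.53 in WT against 17.0 in KO, with a counting interval of the ratio from 1.90 to 2.10, and 1.77% of expressed genes had a ratio at least as high. Tbx3 lies on chromosome 5, 120120678 to 120134733 (mm9), but the assembled locus of 73.5 kb was wider than the gene of 14.1 kb and holds 3 other annotated genes, among them Gm2301, whose exons overlap those of Tbx3.

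Lect2 encodes leukocyte cell-derived chemotaxin 2, a protein that hepatocytes secrete into the blood. The FPKM of Lect2 was 88.8 in WT against 188 in KO, a ratio of 2.11 (counting interval 2.04 to 2.19). The gene of 6.08 kb lies on the minus strand of chromosome 13, 56643821 to 56649899 (mm9). Its assembled locus of 26.1 kb was wider and holds 1 other annotated gene.

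**Figure D2:**
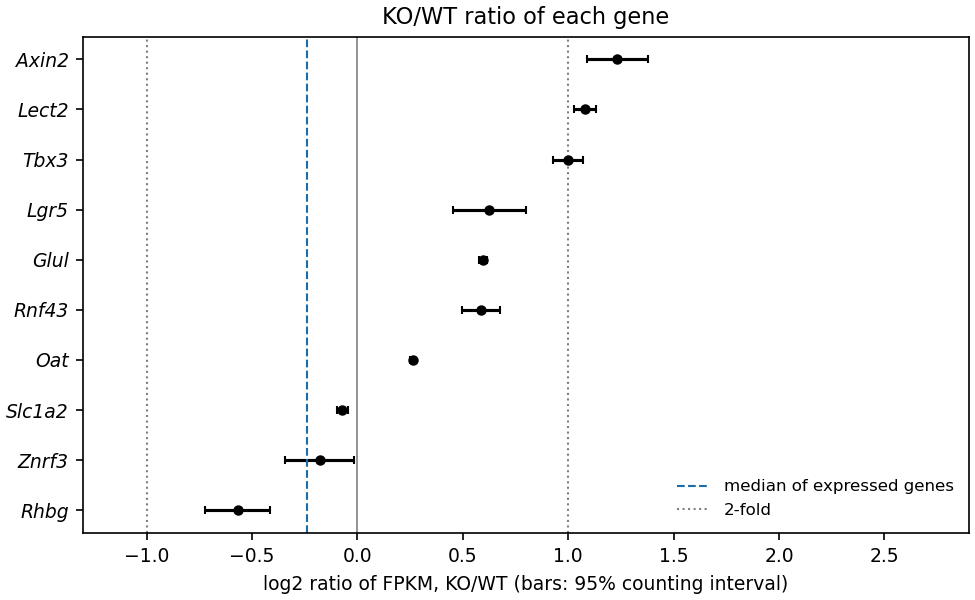
Log2 ratio of FPKM, KO/WT, of each gene, with bars for the 95% counting interval, a dashed line at the median of expressed genes (-0.24) and dotted lines at 2-fold. Axin2, at a ratio of 2.35, and Lect2, at 2.11, have bars beyond the 2-fold line, that of Tbx3 crosses it, and Rhbg is the only gene whose bar lies below the dashed line.

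The TCF/LEF core, searched as CTTTGAT or CTTTGAA on either strand, was looked for in the 250 bases before the annotated start of each gene in RefSeq (GRCm38.p6). Windows were found for Glul, Oat, Slc1a2, Axin2, Rnf43 (with 2 starts) and Lect2. Of the 7 windows of these 6 genes, 2 had a match, those of Lect2 and Slc1a2, while 7.48% of all 32851 windows had one. The windows below are shown because Lect2 and Slc1a2 carry the match (in capitals, here as ATCAAAG on the strand of the gene) and Axin2, the gene with the highest ratio, has none of these letters in this window.
Lect2, chr13:56548539-56548788, minus strand: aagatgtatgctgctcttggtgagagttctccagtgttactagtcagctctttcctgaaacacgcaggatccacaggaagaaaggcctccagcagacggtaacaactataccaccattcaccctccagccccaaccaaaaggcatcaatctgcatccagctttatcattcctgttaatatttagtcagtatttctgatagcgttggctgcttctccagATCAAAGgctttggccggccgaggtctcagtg
Slc1a2, chr2:102706188-102706437, plus strand: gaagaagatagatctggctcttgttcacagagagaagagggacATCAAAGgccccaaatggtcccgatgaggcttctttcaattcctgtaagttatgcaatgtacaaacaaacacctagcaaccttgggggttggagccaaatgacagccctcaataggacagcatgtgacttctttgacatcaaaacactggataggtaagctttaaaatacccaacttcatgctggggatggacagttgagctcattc
Axin2, chr11:108920099-108920348, plus strand: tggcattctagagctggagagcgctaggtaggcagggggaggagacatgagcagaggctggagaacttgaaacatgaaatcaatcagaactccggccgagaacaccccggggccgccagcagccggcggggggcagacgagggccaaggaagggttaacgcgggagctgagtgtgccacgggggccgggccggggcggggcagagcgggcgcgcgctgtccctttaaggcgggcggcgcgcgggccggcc
The match begins 32 bases before the start in Lect2 and 207 bases before it in Slc1a2. Lect2 was 2.11-fold higher in KO, and the ratio of Slc1a2 was 0.951, so the genes with a match did not share a ratio.

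The other 4 genes handle ammonia, glutamate and ornithine, and they went in both directions. Glul encodes glutamine synthetase, which binds ammonia to glutamate in the last rows of hepatocytes before the central vein. Its FPKM was 265 in WT against 399.9 in KO, a ratio of 1.51 (counting interval 1.49 to 1.53). The Glul locus on chromosome 1 spans 67.8 kb around the gene at 155747074 to 155756853 (mm9) and holds 5 other annotated genes. Exons of 5830403L16Rik overlap those of Glul. Oat encodes ornithine aminotransferase, which turns ornithine toward glutamate, and it was the most abundant of the 10 genes, with 1179 FPKM in WT against 1418 in KO. Its ratio was 1.20 (counting interval 1.19 to 1.21). The assembled Oat locus was 3010.1 kb wide and held 41 other annotated genes, whereas the gene covers 18.9 kb on chromosome 7. This FPKM therefore cannot be assigned to Oat with certainty.

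Slc1a2 encodes GLT-1, a glutamate transporter. Its FPKM was 38.8 in WT against 36.9 in KO, a ratio of 0.951 (counting interval 0.934 to 0.968), which turned to 1.12 relative to the median of expressed genes. Rhbg encodes an ammonium channel of the hepatocyte membrane. Its row had 8.34 FPKM in WT against 5.62 in KO, a ratio of 0.674 (counting interval 0.606 to 0.749), and it stayed below the median of expressed genes at 0.795. Rhbg was the only one of the 10 genes that was lower in KO under each scaling tried. The row also names 1700021C14Rik, whose exons overlap those of Rhbg, and reads of these genes cannot be told apart.

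FPKM is scaled to length, so levels can be set beside each other within a library. In WT the order from high to low was Oat, Glul, Lect2, Slc1a2, Tbx3, Rhbg, Rnf43, Axin2, Znrf3 and Lgr5. The counting intervals of neighbours overlapped for Tbx3 and Rhbg and for Znrf3 and Lgr5. In KO the highest 5 genes kept this order, followed by Rnf43, Axin2, Rhbg, Lgr5 and Znrf3, with overlap only for Axin2 and Rhbg. Rhbg moved from place 6 to place 8, and Lgr5 and Znrf3 changed places.

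**Figure D3:**
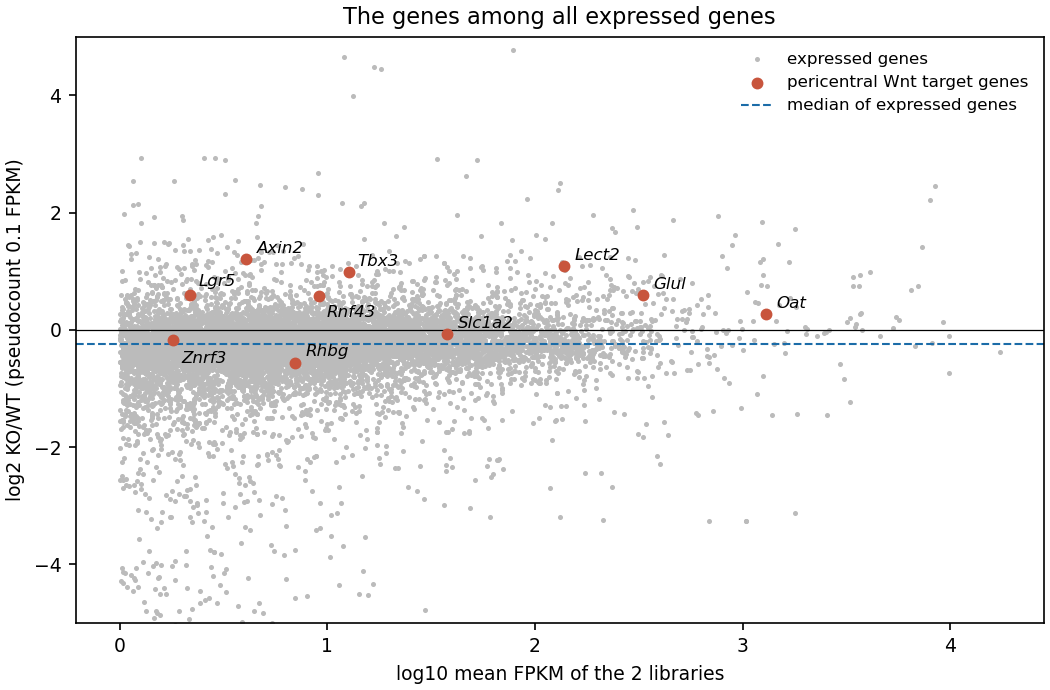
Log2 KO/WT (pseudocount of 0.1 FPKM) against log10 mean FPKM of 11073 expressed genes (grey) and the 10 pericentral Wnt target genes (red), with a dashed line at the median of expressed genes (-0.24), and 52 genes lie outside the vertical axis. Znrf3 is the lowest of the genes in level and Oat the highest, and Axin2, Lect2 and Tbx3 lie near the upper edge of the grey cloud, while Znrf3 lies within it and Rhbg in its lower part.

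Other known Wnt target genes were read as a list of 9, of which 6 had a mean FPKM of at least 0.1. Their median log2 KO/WT was 0.28. As deposited 4 genes were higher in KO, against 25.1% of the 14997 loci, and these 4 stayed higher under each scaling tried. By more than 2-fold, 2 genes were higher in KO, against 2.79% of these loci, and 1 was lower, against 13.7%. Notum, a secreted enzyme that inactivates Wnt proteins and is expressed around the central vein, had 13.7 FPKM in WT against 27.8 in KO, a ratio of 2.02 (counting interval 1.91 to 2.15). Sp5, a transcription factor downstream of β-catenin, had 1.28 and 2.79, a ratio of 2.17 (counting interval 1.77 to 2.66). Tnfrsf19, a receptor of the tumor necrosis factor family, was lower in KO, at 0.716 and 0.320 FPKM (KO/WT ratio 0.447, counting interval 0.340 to 0.585). Tcf7, which encodes a TCF factor, had 2.64 and 3.55 FPKM. Ccnd1, the gene of cyclin D1 and also a gene of cell cycle entry, differed little, with 21.3 and 23.5 FPKM. Nkd1, an inhibitor within the pathway, had a ratio of 0.857, which became 1.01 relative to the median of expressed genes.

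Among the 23 genes of Wnt and R-spondin ligands, 8 had a mean FPKM of at least 0.1, and 10 were listed at 0 in both libraries. More than 2-fold higher in KO were 2 ligands, Wnt2 and Wnt9b, against 2.79% of the 14997 loci. Relative to the median of expressed genes there were 3, with Wnt5b at 2.24, against 2.74% of expressed genes. Wnt2 and Wnt9b are known from central vein endothelium. Wnt2 had 0.885 FPKM in WT against 1.94 in KO, a ratio of 2.19 (counting interval 1.74 to 2.79). Wnt9b had 0.521 and 1.06, a ratio of 2.03 (counting interval 1.64 to 2.54). Rspo3, the R-spondin of the central vein, had 2.57 and 2.72 FPKM, a ratio of 1.06 with a counting interval from 0.910 to 1.23 that includes 1. Wnt5b, the most abundant ligand in this list, had 2.99 and 5.67 FPKM (ratio 1.89, counting interval 1.67 to 2.15). The other 4 of the 8 ligands (Wnt2b, Wnt4, Wnt5a and Rspo1) were lower in KO under each scaling tried, near the share of 53.4% of the 14997 loci. The counting intervals of Wnt2b and Rspo1 include 1. The median log2 KO/WT of the list was -0.09, which turned to 0.11 once the libraries were centred on the median of expressed genes.

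Which cells made each ligand cannot be read from bulk liver, where fewer cells of a type and less RNA per cell cannot be told apart. Of 11 endothelial markers, 10 were lower in KO as deposited, against 74.9% of the 14997 loci, and 7 were lower under each scaling tried, against 53.4%. Their median log2 KO/WT was -0.60, against -0.25 over the 14997 loci, and their summed level was 82.8 FPKM in WT and 64.4 in KO. Clec4g had 21.8 and 18.9 FPKM, Eng 15.7 and 14.5, and Stab1 11.7 and 10.5, and these 3 turned to slightly higher in KO relative to the median of expressed genes. The rows of Clec4g and Eng also name another symbol each, so these values belong to joint loci. Lyve1 was lower, at 2.72 and 1.17. None of the markers was at 0, and their part in the ligand values was not tested.

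The medians of the receptors and of the cytoplasmic and nuclear core of the pathway lay close to the median of all genes. Of 17 receptor genes, 11 had a mean FPKM of at least 0.1, and their median log2 KO/WT of -0.20 turned to 0.02 after centring. None of the 11 was past 2-fold in either direction, where 2.79% of the 14997 loci were higher in KO and 13.7% lower. Lrp5 and Lrp6, the paired co-receptors, went apart. Lrp5 had 16.7 FPKM in WT against 28.1 in KO (ratio 1.68, counting interval 1.62 to 1.74), and Lrp6 had 12.6 and 9.67 (ratio 0.770, counting interval 0.742 to 0.799). Lgr4, the R-spondin receptor related to Lgr5, was lower in KO, with 14.8 and 7.75 FPKM (ratio 0.524, counting interval 0.497 to 0.552), against the ratio of 1.54 of Lgr5.

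None of the 18 core genes was past 2-fold, where 2.79% of the 14997 loci were higher in KO and 13.7% lower. Their median of -0.20 turned to 0.04 after centring. Ctnnb1, which encodes β-catenin, had 93.6 FPKM in WT against 72.8 in KO, a ratio of 0.779 (counting interval 0.762 to 0.796). Csnk1a1, a kinase that marks β-catenin for breakdown, had 44.5 and 35.1 FPKM. The row of Pygo2, a nuclear cofactor, had 32.1 and 25.6 FPKM and also names Shc1. These 3 genes were among 8 of the 18 that stayed lower in KO under each scaling tried, against 53.4% of the 14997 loci. Relative to the median of expressed genes, their ratios were 0.918 (Ctnnb1), 0.931 (Csnk1a1) and 0.941 (Pygo2). Of the 10 secreted inhibitors, 2 had a mean FPKM of at least 0.1. Frzb had 1.51 and 0.876 FPKM, and Dkk3 had 0.387 and 0.461, while Sfrp1, the next in level, had 0.0902 and 0.0395.

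**Figure D4:**
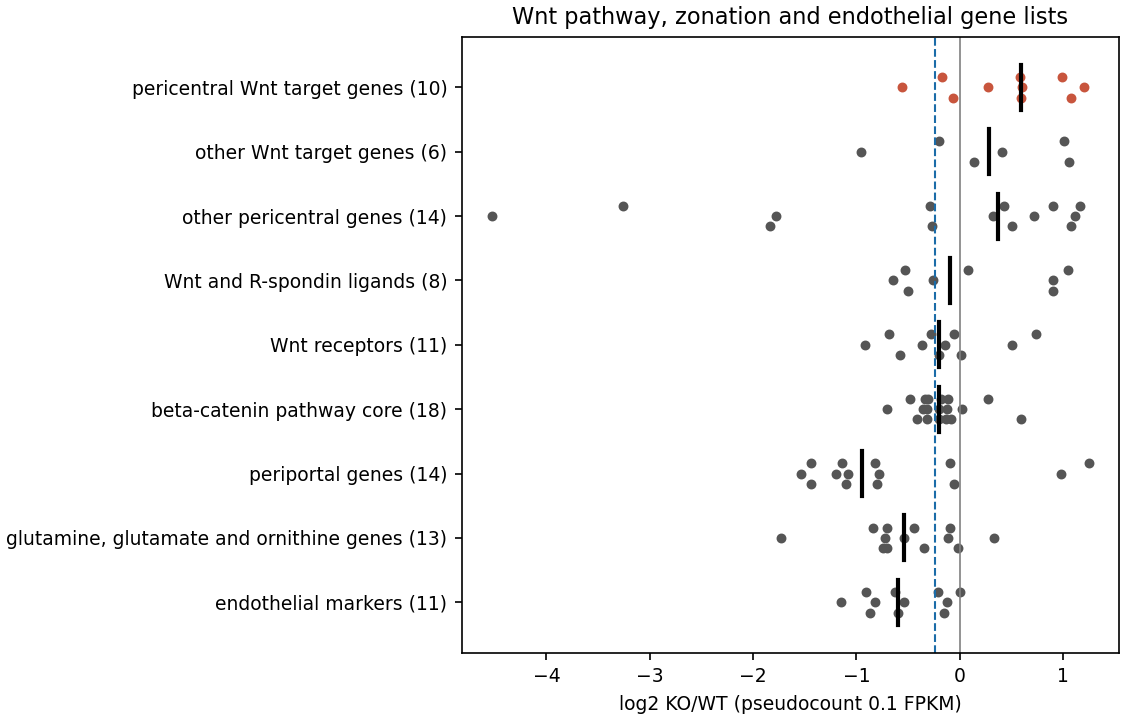
Log2 KO/WT (pseudocount of 0.1 FPKM) of each gene with a mean FPKM of at least 0.1 in 9 lists, with the number of genes in parentheses, a black bar at each list's median and a dashed line at the median of expressed genes (-0.24). The median of the pericentral Wnt target genes (0.59) lies to the right and that of the periportal genes (-0.95) to the left of the dashed line, while the receptors and the core lie on it and other pericentral genes spread from -4.53 to 1.16.

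Genes of the pericentral zone outside the 10 did not move as a block. Of 14 such genes, 3 were more than 2-fold higher in KO, against 2.79% of the 14997 loci, and 4 more than 2-fold lower, against 13.7%, and their median log2 KO/WT was 0.37. Cyp2e1, a cytochrome P450 of alcohol and drug metabolism, had 1039 FPKM in WT against 2319 in KO, a ratio of 2.23 (counting interval 2.22 to 2.25). Slc22a3, an organic cation transporter, had 3.77 and 8.32 FPKM (ratio 2.21). Nr1i3, the nuclear receptor CAR, named after its values were seen, had 35.6 and 75.6 FPKM (ratio 2.12). Cyp2c29 was less different, at 1276 and 1715 FPKM.

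On the other side, Cyp7a1, the rate-limiting enzyme of bile acid synthesis, had 30.1 FPKM in WT and 1.20 in KO. Of the drug-metabolizing cytochromes P450, Cyp1a2 had 488 and 142 FPKM, and Cyp2a5 had 518 and 145. The joint row of Gstm3, a glutathione transferase, had 1872 and 195 FPKM and also names Gstm6 and Gm12494. These 4 genes lay far below the range of the 10 genes of the main list, which ran from -0.56 (Rhbg) to 1.20 (Axin2) on the log2 scale. None of the 14 lay above that range (Cyp2e1, the highest, was at 1.16).

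Of 14 periportal genes, 12 were lower in KO, against 74.9% of the 14997 loci, and 10 of them were lower under each scaling tried, against 53.4%. By more than 2-fold, 7 were lower, against 13.7% of these loci, but relative to the median of expressed genes 3 were, against 6.30% of expressed genes. Their median log2 KO/WT was -0.95, against 0.59 for the pericentral Wnt target genes and -0.25 for all loci. Ass1 and Asl, enzymes of the urea cycle, had ratios of 0.368 and 0.453, and Cps1, which carries ammonia into that cycle, had 1597 FPKM in WT against 743 in KO. Gls2, the liver glutaminase that releases ammonia at the periportal end, had 188 and 64.5 FPKM (ratio 0.343, counting interval 0.335 to 0.352), against the ratio of 1.51 of Glul, which acts in the reverse direction. Cyp2f2, a periportal cytochrome P450, had a ratio of 0.369 and Cdh1, the gene of E-cadherin, one of 0.432. Mfsd2a, a lipid transporter, was more than 2-fold higher, with 17.3 and 41.4 FPKM. G6pc, the gene of glucose-6-phosphatase, named after its values were seen, had 55.3 and 109 FPKM, a ratio of 1.97 that became 2.33 relative to the median of expressed genes. Pck1, an enzyme of glucose synthesis, had 852 and 818 FPKM, and its ratio turned to 1.13 relative to the median of expressed genes.

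Of 16 genes of glutamine, glutamate and ornithine handling, 13 had a mean FPKM of at least 0.1. Lower in KO as deposited were 12 of the 13, against 74.9% of the 14997 loci, and 9 were lower under each scaling tried, against 53.4%. Slc38a3, the glutamine transporter of pericentral hepatocytes, had 536 FPKM in WT against 321 in KO, a ratio of 0.599 (counting interval 0.592 to 0.605). Slc38a4, an amino acid transporter, had 386 and 237 FPKM. Glud1, glutamate dehydrogenase, was the gene higher in KO, with 455 and 571 FPKM (ratio 1.26). By more than 2-fold, 1 of the 13 was lower in KO, against 13.7% of the 14997 loci. This was Aldh18a1, an enzyme of proline and ornithine synthesis from glutamate, with 0.996 and 0.231 FPKM (ratio 0.232, counting interval 0.164 to 0.323).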

How the data were processed

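Hepatic RNA was sequenced as 1 WT and 1 KO library with a TruSeq kit that does not mark strand. Per the labels and the study's methods, the authors aligned reads to NCBI37 (mm9) with TopHat 2.0.0, assembled transcripts with Cufflinks 1.3.0 and had Cuffdiff estimate the deposited FPKM, 1 value per locus and library. The deposited table also holds Cuffdiff's fold changes, test statistics, p-values and q-values, which were not used here.

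Of 38016 loci, 21 marked HIDATA (listed at 0) were left out and 2302 had no symbol. The 850 loci naming several symbols gave each symbol the joint value, and rows of 1 symbol were summed. Loci shared by several symbols counted once among all genes. GENCODE vM1 on NCBIM37 held 32451 of the 33224 symbols and gave coordinates and transcript lengths. Fragments were estimated from FPKM, the longest annotated transcript and the depth, and intervals assume that length. Before log2 ratios 0.1 FPKM was added to each value as a pseudocount, so differences of low genes come out too small. In lists, genes below a mean FPKM of 0.1 were left out. Ratios relative to the median of expressed genes multiply KO by 1.18.

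No test was run, since there are no replicates. The members and gene lists were chosen with earlier results of these data known. Named were every member, Ppard, Wnt2, Wnt9b and Rspo3, and in each list the 3 genes with the highest mean FPKM and up to 6 genes past 2-fold with the largest fold. Genes given beside these were named after their values were seen. Likeness of pattern was not computed, since 2 libraries give 1 ratio per gene. Steps were tested on simulated data and run in Python 3.11.15 (scipy 1.17.1, pandas 2.3.3, numpy 2.4.6, matplotlib 3.10.9).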

Additional observations from a re-analysis of the deposited data

How the results depend on the processing

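No paired analysis was possible because there is 1 library per genotype and nothing pairs them, and leaving out a library was not possible for the same reason. With 1 library each, the difference between mice was not measured, and depth limits only the low genes. A threshold of 1.5-fold in place of 2-fold gave 6 of the 10 genes higher in KO and one of 3-fold gave 0. Centring, equal upper quartiles and equal sums without the 50 most abundant genes left Axin2, Lect2 and Tbx3, 3 genes, past 2-fold. Centring left 3 of the 7 periportal genes more than 2-fold lower in KO. The median of the 10 genes was 0.60 without Rhbg, Rnf43 and Oat, and that of the other pericentral genes 0.47 without Gstm3 and Cyp7a1, both alternatives chosen after seeing the data.

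Scaling changed the sign of small values, as it adds the same amount to each log2 ratio. With centring, equal upper quartiles and equal sums, in this order, the log2 KO/WT of Slc1a2 was 0.17, 0.16 and 0.08, and the median of the ligands was 0.11, 0.10 and 0.04. With centring and equal upper quartiles, that of Znrf3 was 0.06 and 0.05, the median of the receptors 0.02 and 0.01, and that of the core genes 0.04 and 0.03 (with equal sums, -0.05). The ligands with a mean FPKM of at least 1 had a median of 0.90, since the filter leaves few genes. With fragments counted on the shortest coding transcript, the low end of the counting interval of Axin2 was 1.73 in place of 2.13. That of Znrf3 was 0.661 in place of 0.788, that of Slc1a2 0.871 in place of 0.934 and that of Glul 1.46 in place of 1.49. The width of these intervals thus depends on the length assumed. Apart from Slc1a2 and Znrf3, the sign of each member's log2 ratio was the same under each alternative tried.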

Other observations

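Of 7 macrophage markers, 6 were lower in KO under each scaling tried, against 53.4% of the 14997 loci with a mean FPKM of at least 0.1, at a median log2 of -0.82 for KO/WT and a summed FPKM of 59.7 in WT and 37.3 in KO. Cd5l had 18.4 and 10.8 FPKM, Clec4f 17.3 and 10.6, and Csf1r 3.98 and 1.64, while Marco had 6.58 and 7.37. The 5 stellate cell markers were lower as deposited (median -0.42), as were 74.9% of these loci, and 3 were lower under each scaling tried. Dcn had 62.6 and 46.9 FPKM, Reln 9.56 and 6.40, and Colec11 8.87 and 8.02, of which Colec11 turned to 1.07 relative to the median of expressed genes.

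Of 6 cholangiocyte markers, 5 had a mean FPKM of at least 0.1. More than 2-fold lower in KO were 2 of these 5, against 13.7% of the 14997 loci, namely Krt7 (1.12 and 0.360 FPKM) and Krt19 (1.72 and 0.559). Spp1 had 24.5 and 22.7 FPKM, Sox9 had 1.95 and 1.78, and Epcam had 0.539 and 0.330. S100a8, a neutrophil marker, had 6.68 and 3.33 FPKM, and S100a9 had 6.11 and 3.48, while Camp was listed at 0 in both libraries. Of the lymphocyte markers, Cd79a (0.138 and 0.0765 FPKM) and Cd3g (0.157 and 0.0740) were low, with about 10.7 and 8.54 fragments in WT. Ptprc was better covered, at 0.770 and 0.506 FPKM from about 239 and 162 fragments (ratio 0.657, counting interval 0.533 to 0.803). Of the erythroid markers, Hbb-b1 had 136 and 102 FPKM and Alas2 had 20.6 and 37.5.

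Wnt11, named after its values were seen, had too low a mean FPKM for the list of ligands. It had 0.184 FPKM in WT against 0.00463 in KO, about 33.8 fragments against fewer than 1. The WT/KO ratio was 39.7, with a counting interval from 5.91 to 1431.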
